A study of Mus musculus with 34 samples.

Results

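The cytochrome P450 genes of families 1 to 4 and the UDP-glucuronosyltransferase genes of the Ugt1a, Ugt2a and Ugt2b groups were examined in mouse colon tumour organoids. They were taken from the gene table by name and gene type alone: protein-coding genes named Cyp, a family digit from 1 to 4, a letter and a number, or beginning with Ugt1a, Ugt2a or Ugt2b. This gave 99 of 54354 genes, 80 of them P450 genes and 19 glucuronosyltransferase genes. RNA had been sequenced in 34 libraries of organoids, which are epithelial cultures grown in 3 dimensions, and every group carried the genotype given as AKP. A CRISPR experiment held 3 libraries of a control called Scrambled, 9 of the Degs1 knockout line clone1 and 9 of the Degs1 knockout line clone2. A hairpin experiment held 10 control libraries called shControl, and 3 called shYAP whose short hairpin RNA targets Yap1. Each clone and the Scrambled control was 1 line. The labels do not say whether replicates were separate cultures, so n counts libraries and the p-values measure only the spread between libraries, which may be technical.

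P450 enzymes of these families are haem proteins of the endoplasmic reticulum that put oxygen into drugs, toxins, steroids and fatty acids, taking their electrons from the reductase Por. Glucuronosyltransferases join glucuronic acid, carried by UDP, to the products, and efflux pumps then carry the conjugates out of the cell. In gut epithelium many of these genes are switched on by the xenobiotic receptors PXR (Nr1i2), CAR (Nr1i3) and AHR (Ahr), beside the epithelial factor HNF4.

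Degs1, which encodes the desaturase of the last step of ceramide synthesis, lay at 4.94 to 10.1 CPM (reads of the gene scaled to a common library size by TMM) in the Scrambled libraries, 0.814 to 4.58 in clone1 and 0.219 to 2.86 in clone2. All knockout libraries lay below all Scrambled libraries. Yap1 lay at 9.49 to 22 CPM in shControl and 17.9 to 20.1 in the libraries labelled shYAP, a log2 difference of 0.20 ± 0.23 (SE; edgeR adjusted p = 0.619), so a lower Yap1 mRNA was not measured under that label. All 6 epithelial markers and the colon markers Cdx1 and Cdx2 had counts in every group, while the 5 fibroblast markers together reached at most 1.18 CPM in any library. Library totals ran from 883253 to 6597099 counts, the lowest being clone1 replicate 2.

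Most of these genes were silent or close to silent. Of the 99 genes, 56 had 0 counts in all 34 libraries, 25 had between 1 and 86 counts in total and fell under the filter on low counts, and 18 were tested. Of the 54354 genes in the table, 29742 had 0 counts in all 34 libraries, and 22% were tested. Silence was therefore about as common in the whole table, which also holds entries that are not protein-coding. It is not shown to be a trait of this set. No count was found for any gene of the Cyp2a, Cyp2g, Cyp2r, Cyp2t, Cyp2w, Cyp4a or Cyp4b subfamilies, among them the fatty acid hydroxylases of the Cyp4a group. Of the 9 Cyp3a genes 2 had counts, and 1, Cyp3a13, was tested. Of the 15 Cyp2c genes 5 had counts, and Cyp2c55 and Cyp2c65 were tested. The Cyp2d subfamily was the best represented, with 7 of 8 genes holding counts and 4 tested. Of the glucuronosyltransferases only Ugt1a7c and Ugt2b34 were tested, since the other 7 with counts were under the filter and 10 had none. A gene could pass the filter through 1 group alone: Cyp2c65, Cyp2d10, Cyp2d12 and Cyp2e1 reached the filter level in the knockout experiment in clone1 libraries alone, and Cyp1b1 in 8 clone2 libraries and 1 Scrambled library. The counts of changed genes below are read with that in mind.

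**Figure D1:**
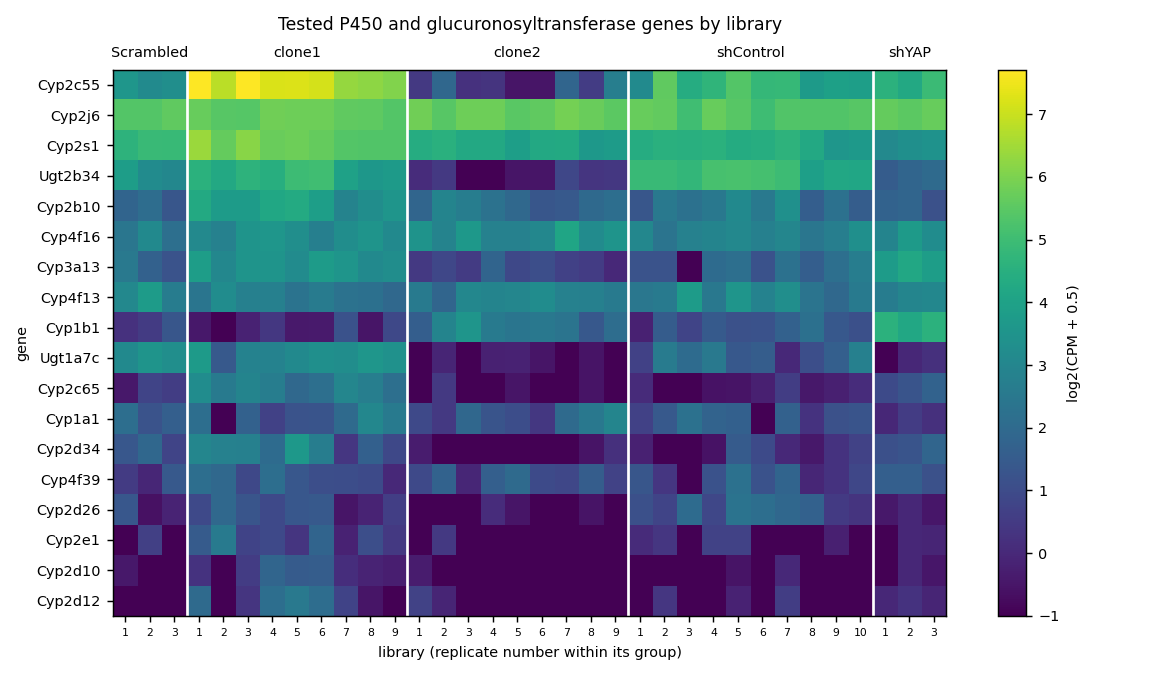
Level of the 18 tested genes (vertical, ordered by CPM per kilobase of exon averaged over the 5 groups) in the 34 libraries (horizontal, by group and replicate number), as log2(CPM + 0.5). Cyp2c55 is bright in all 9 clone1 libraries and dark in clone2, and Cyp2j6 is even across all groups.

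Per kilobase of exon and averaged over the 5 groups, Cyp2c55 was the most abundant at 19.2 CPM per kb, ahead of Cyp2j6 at 13 and Cyp2s1 at 5.16. Cyp2c55 is a hydroxylase of arachidonic acid known from colon epithelium, and Cyp2s1 is a P450 of surface epithelia. The 3 genes held 65% of the 27586 counts of the whole set. Below them Ugt2b34 stood at 2.88 CPM per kb, Cyp2b10 at 2.67, Cyp4f16 at 2.66 and Cyp3a13 at 2.25, and the other tested genes at 0.155 to 1.57. The order rested on the groups: in CPM per kb, Cyp2c55 stood at 66.2 in clone1 and 0.896 in clone2, while Cyp2j6 stood at 13.4 and 14.1. Summed over all 99 genes, the level was 132 ± 5.62 CPM in Scrambled (SD, n = 3), 330 ± 85.4 in clone1 (n = 9), 104 ± 10.1 in clone2 (n = 9), 150 ± 29.2 in shControl (n = 10) and 153 ± 9.65 in the libraries labelled shYAP (n = 3). Without Cyp2c55, these sums were 122, 198, 102, 126 and 129 CPM. In RNA from whole cultures, fewer cells of a kind and less RNA per cell cannot be told apart.

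Clone1 was compared with Scrambled to see what went with the Degs1 knockout in the first line. Cyp2c55, Cyp2c65, Cyp2b10, Cyp3a13, Cyp2s1, Cyp2d10, Cyp2d12 and Ugt2b34 were higher in clone1. In all 8 of the 18 tested genes were called higher and 0 lower by the quasi-likelihood test of edgeR at an adjusted p under 0.05. Over all 11514 genes tested 12.7% were called, with 5.96% higher and 6.71% lower. The median log2 change of the 18 was 1.03, and that of all genes tested 0.025. Cyp2c65, Cyp2d10 and Cyp2d12 reached the filter level in clone1 libraries alone, as did the uncalled Cyp2e1. The count of higher genes and the median therefore lean towards clone1 by selection.

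Cyp2c55 lies beside Cyp2c65 on chromosome 19 (39007019 to 39042693 and 39061015 to 39093944, both on the plus strand of mm10, GENCODE M21), with 18322 bases between them. Their promoters are shown because the 2 neighbours moved together in both clones. The 250 bases before each start are given from RefSeq (GRCm38.p6), at chr19:39006769-39007018 and chr19:39060756-39061005, 5′ to 3′ on the gene's strand. Capitals mark matches to the TATA box (TATAAA), to the site of the CDX factors Cdx1 and Cdx2 (TTTATNG), and to the HNF4 site (CAAAGTCCA), with both strands searched.
Cyp2c55: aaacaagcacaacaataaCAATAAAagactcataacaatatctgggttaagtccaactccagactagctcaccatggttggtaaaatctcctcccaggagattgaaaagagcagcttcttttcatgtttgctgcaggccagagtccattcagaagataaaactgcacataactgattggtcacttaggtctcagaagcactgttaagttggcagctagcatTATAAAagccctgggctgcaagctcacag
Cyp2c65: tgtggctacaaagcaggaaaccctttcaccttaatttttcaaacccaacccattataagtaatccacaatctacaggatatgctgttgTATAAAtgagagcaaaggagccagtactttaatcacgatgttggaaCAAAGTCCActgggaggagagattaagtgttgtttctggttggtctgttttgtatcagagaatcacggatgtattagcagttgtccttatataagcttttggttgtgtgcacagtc
The Cyp2c55 window holds TATAAA from 29 to 24 bases before the start and TTTATNG on the other strand from 232 to 226. The Cyp2c65 window holds CAAAGTCCA from 116 to 108 bases before the start and TATAAA from 162 to 157. Among 32851 windows of this length, 12.4% hold TATAAA, 9.81% TTTATNG and 0.384% CAAAGTCCA. A match is a description of the letters and was not tested for binding.

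Cyp2c55 read 11.3, 8.49 and 9.33 CPM in Scrambled replicates 1 to 3. In clone1 it ranged from 66.8 to 209 CPM with a median of 141, so the groups did not overlap. Its log2 rise was 3.78 ± 0.56 (SE; edgeR adjusted p = 1.37e-04). Its neighbour Cyp2c65, also an arachidonic acid oxidase of the gut, read 0.231, 1.24 and 1.01 CPM in Scrambled and 3.39 to 8.87 in clone1 (median 5.89). Every clone1 library was above every Scrambled library, and the rise was 2.74 ± 0.60 (adjusted p = 0.00172). Of the distinct 31-base stretches of its transcripts, 35.4% also occur in other genes, mostly Cyp2c66, which held 2 counts in all libraries, against 2.9% for Cyp2c55.

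Cyp2b10 is the classical target of CAR. It stood at 3, 3.86 and 2.03 CPM in Scrambled and at 6.95 to 19.6 in clone1 (median 13.3), without overlap. The rise was 2.19 ± 0.36 (edgeR adjusted p = 4.48e-05). Cyp3a13, a Cyp3a gene active in gut as well as liver, stood at 5.31, 2.78 and 1.83 CPM and at 7.74 to 13.8 (median 10.9), and rose by 1.69 ± 0.36 (adjusted p = 0.00119). Here too the groups did not overlap, and Scrambled replicate 1 was the highest of its group. Cyp2s1 stood at 24, 29.3 and 28.4 CPM and at 40.4 to 83.1 (median 49.7), a rise of 0.98 ± 0.20 (adjusted p = 7.29e-04).

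Ugt2b34 stood at 13.9, 8.65 and 7.71 CPM in Scrambled and at 11.7 to 32.3 in clone1 (median 21.3). The groups overlapped at Scrambled replicate 1. It was called higher at 1.09 ± 0.33 (edgeR adjusted p = 0.0246), but not without Scrambled replicate 2 (0.99, adjusted p = 0.146) or replicate 3 (0.93, adjusted p = 0.147), and not with clone1 replicates 7 to 9 alone (0.41, adjusted p = 0.371). Cyp2d12 and Cyp2d10, of the subfamily of the human drug oxidase CYP2D6, were low: Cyp2d12 had 0 counts in Scrambled and 74 in clone1, which is at least 10.4-fold higher with 3 counts over the group as the floor, and Cyp2d10 had 1 and 44, a ratio of 18.6 with a 95% counting interval from 3.17 to 751. Cyp2d12 lost its call without Scrambled replicate 1, 2 or 3 (adjusted p = 0.0612, 0.0779 and 0.0567), and Cyp2d10 without replicate 2 or 3 (adjusted p = 0.183 and 0.138). Of Cyp2d10, 50.2% of the 31-base stretches are shared with other genes, so its reads are not securely its own. Summed over the whole Cyp2d subfamily, Scrambled libraries held 1.62 to 4.85 CPM and clone1 libraries 3.05 to 22.7. Without Scrambled replicate 2, 5 genes were called in place of 8.

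Clone2 was compared with the same 3 Scrambled libraries, which both clone comparisons share. Here the set moved mainly down: the only tested glucuronosyltransferases, Ugt1a7c and Ugt2b34, were nearly lost, and Cyp2c55, Cyp2c65, Cyp3a13, Cyp2s1, Cyp2d34 and Cyp2d26 were lower. Cyp1b1 alone was higher. In all 8 of 18 were called lower and 1 higher. Over all 11514 genes tested, 33.1% were called, with 16.6% lower and 16.5% higher. The median log2 change was -0.77, and -0.030 over all genes tested. Of the lower genes, Ugt1a7c, Ugt2b34, Cyp2c65, Cyp2d34 and Cyp2d26 reached the filter level in no clone2 library. The uncalled Cyp2d10, Cyp2d12 and Cyp2e1 did not reach it there either, while Cyp1b1 reached it in 8 clone2 libraries and 1 Scrambled library. The count of lower genes and the median are therefore read with this selection in mind.

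Ugt1a7c (chromosome 1, 88095062 to 88220002) is 1 of 9 genes of the Ugt1a locus, each with its own first exon and with the later exons in common. It stood at 8.32, 11 and 9.33 CPM in Scrambled and at 0 to 0.437 in clone2 (median 0.192). In log2 units it fell by 5.53 ± 0.43 (edgeR adjusted p = 5.99e-13), and all clone2 libraries were below all Scrambled libraries. Since 55.7% of its 31-base stretches are shared, the sum over the 9 genes is given as well: 8.32 to 11 CPM in Scrambled and 0 to 0.463 in clone2. Ugt2b34, on chromosome 5, ran from 0 to 1.32 CPM in clone2 (median 0.565), below the 3 Scrambled values given above. The fall was 4.19 ± 0.40 (log2 -4.19; adjusted p = 5.92e-10). All 19 glucuronosyltransferase genes together held 17 to 23.1 CPM in the Scrambled libraries and 0.377 to 1.32 in those of clone2.

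Cyp2c55 ran from 0.196 to 6.08 CPM in clone2 (median 0.848), below all 3 Scrambled libraries, and fell by 2.36 ± 0.60 (edgeR adjusted p = 0.00515). Cyp2c65 had 6 counts in the 9 clone2 libraries, with 0 in 6 of them, and fell by 2.44 ± 0.75 (adjusted p = 0.0102). That call was lost without Scrambled replicate 2 (-2.02, adjusted p = 0.109). Cyp3a13 ran from 0.493 to 3.01 CPM (median 1.1) and fell by 1.32 ± 0.38 (adjusted p = 0.00606). It overlapped Scrambled, and the call was lost without Scrambled replicate 1 (-0.85, adjusted p = 0.158).

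Cyp2s1 ran from 12.1 to 22.7 CPM in clone2 (median 18.5), below every Scrambled library, and fell by 0.67 ± 0.19 (edgeR adjusted p = 0.00632). Cyp2d34 stood at 2.08, 3.24 and 1.22 CPM in Scrambled and at 0 to 0.657 in clone2, with 0 counts in 6 of 9 libraries, and fell by 3.80 ± 0.76 (adjusted p = 1.48e-04). Cyp2d26 fell by 2.61 ± 0.95 (adjusted p = 0.0307) from 2.08, 0.154 and 0.406 CPM. The first of those 3 libraries carried that call, which was lost without Scrambled replicate 1 (-1.10, adjusted p = 0.573).

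Cyp1b1, an oxidase of polycyclic hydrocarbons and oestradiol and a target of AHR, stood at 0.693, 0.927 and 2.03 CPM in Scrambled and at 2.11 to 11.1 in clone2 (median 4.71). It rose by 2.05 ± 0.57 (edgeR adjusted p = 0.00502), with no overlap, and with clone2 replicates 7 to 9 alone it stood at 1.51 (adjusted p = 0.0553).

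The 2 clones of the same knockout were then set directly against each other. In clone2, 12 of the 18 tested genes were called lower than in clone1 and 1 higher, where 49.1% of all genes tested were called, 25.5% lower and 23.6% higher. The median log2 difference of the 18 was -3.19, and that of all genes tested -0.05. Cyp2c65, Cyp2d10, Cyp2d12 and Cyp2e1, all among the 12, reached the filter level in clone1 libraries alone. Ugt1a7c, Ugt2b34, Cyp2d34 and Cyp2d26, also among the 12, reached it in clone1 and Scrambled libraries but in no clone2 library. The count of lower genes and the median therefore lean that way by selection. Cyp2c55 was lower by -6.14 ± 0.43 (edgeR adjusted p = 6.79e-10), Ugt1a7c by -5.43 ± 0.37 (adjusted p = 9.17e-15), Ugt2b34 by -5.28 ± 0.33, Cyp2c65 by -5.18 ± 0.51 and Cyp2d34 by -5.00 ± 0.60. Between -4.66 and -3.01 followed Cyp2d10, the ethanol oxidase Cyp2e1, Cyp2d12, Cyp2d26 and Cyp3a13, and after them Cyp2b10 at -1.81 ± 0.23 and Cyp2s1 at -1.65 ± 0.14. Cyp1b1 was higher in clone2 by 2.87 ± 0.42 (adjusted p = 4.74e-07). The highest clone2 library for Cyp2c55, at 6.08 CPM, was below the lowest clone1 library, at 66.8.

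**Figure D2:**
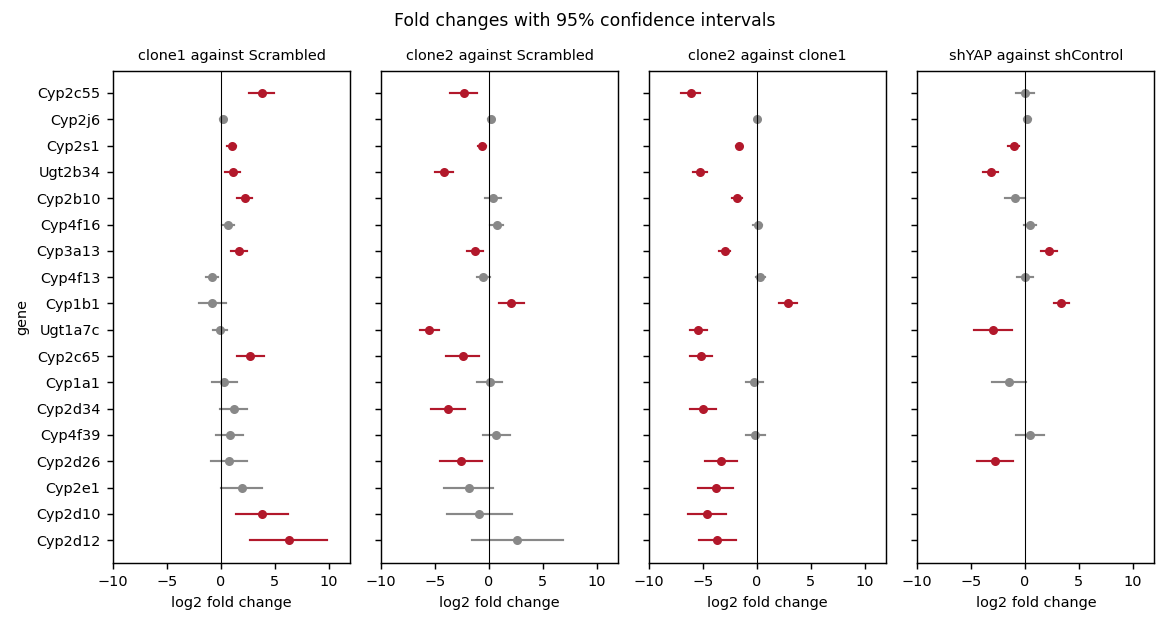
Log2 fold change (horizontal) of each tested gene (vertical) in 4 comparisons, with 95% confidence intervals from the edgeR fit; red marks an adjusted p under 0.05. Points lie to the right in clone1 and to the left in clone2 for Cyp2c55, Cyp2c65, Cyp2s1, Cyp3a13 and Ugt2b34, and 5 genes under the filter of the hairpin experiment have no point on the right.

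Against Scrambled, 5 genes were called in both clones, and all 5 had opposite signs: Cyp2c55 (3.78 and -2.36), Cyp2c65 (2.74 and -2.44), Cyp3a13 (1.69 and -1.32), Cyp2s1 (0.98 and -0.67) and Ugt2b34 (1.09 and -4.19). No gene of the set was called with the same sign in both. None of the 5 kept both calls under every alternative analysis: besides the losses without single Scrambled libraries given above, a fit with the replicate number as a block left 5 clone2 calls in place of 9. No called value changed sign under any alternative. Degs1 mRNA was called lower in both clones and the difference between them was -0.58 ± 0.37 (edgeR adjusted p = 0.191). Cyp2b10 and Ugt1a7c split in another way. Cyp2b10 was called higher in clone1 and read 0.37 ± 0.36 in clone2 (adjusted p = 0.458), while Ugt1a7c was called lower in clone2 and read -0.10 ± 0.32 in clone1 (adjusted p = 0.887), where it ranged from 2.21 to 12.8 CPM across the 9 libraries.

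**Figure D3:**
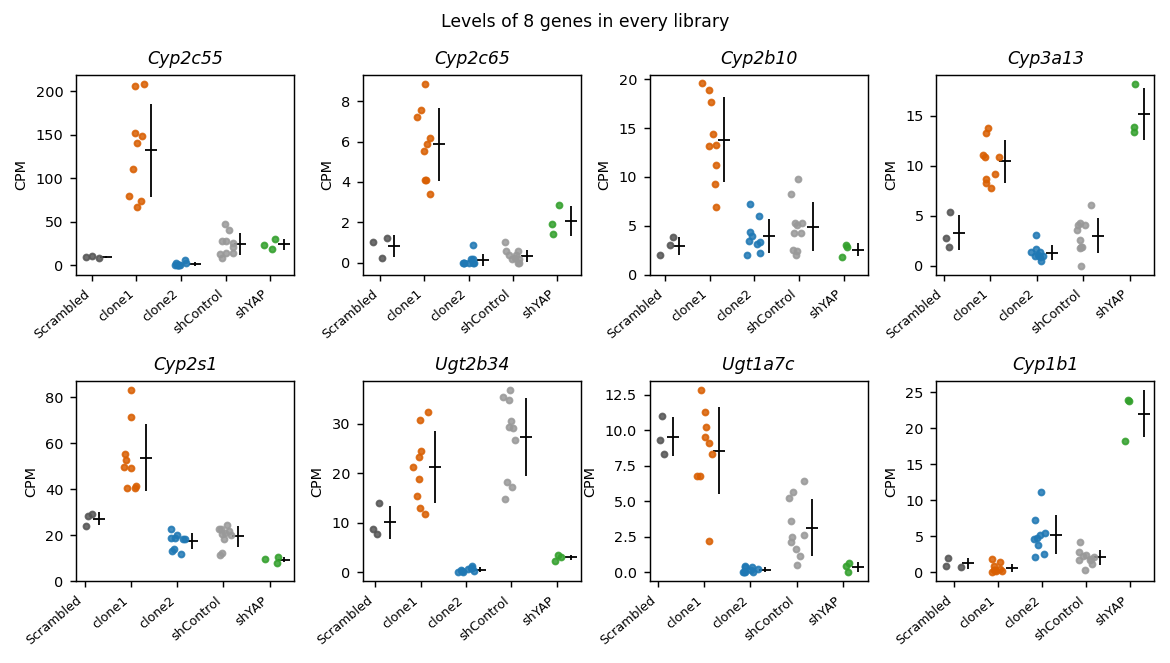
CPM (vertical, linear, 1 scale per gene) of 8 genes in every library (points) of the 5 groups, with mean and SD as a black bar. The 9 clone1 libraries stand highest for Cyp2c55 (66.8 to 209 CPM), and the 3 libraries labelled shYAP stand highest for Cyp1b1 (18 to 23.9 CPM) and low for Ugt2b34 (2.39 to 3.53 CPM).

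The hairpin experiment compared the libraries labelled shYAP with shControl. Of 13 genes tested there, 2 were called higher and 4 lower, where 11.4% of all 11094 genes tested were called, 5.47% higher and 5.9% lower. The medians were -0.003 for the 13 genes and -0.05 for all genes tested. Cyp1b1 and Cyp3a13 were higher. Both glucuronosyltransferases, Cyp2s1 and Cyp2d26 were lower, and Cyp2c55 was not called. Ugt1a7c, Cyp2d26 and Cyp1a1 reached the filter level here in shControl libraries alone, so the count of lower genes is read with that in mind.

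Cyp1b1 (chromosome 17, minus strand) and Cyp1a1 (chromosome 9, plus strand) are both textbook targets of AHR, and their promoters are shown because their levels parted in these libraries. The windows are chr17:79715062-79715311 and chr9:57697363-57697612 (RefSeq, GRCm38.p6), 250 bases before the start, 5′ to 3′ on the gene's strand. Capitals mark the AHR core GCGTG on either strand (CACGC when read on the other one) and, in Cyp1a1, a TATAAA and a reversed TTTATNG that overlap.
Cyp1b1: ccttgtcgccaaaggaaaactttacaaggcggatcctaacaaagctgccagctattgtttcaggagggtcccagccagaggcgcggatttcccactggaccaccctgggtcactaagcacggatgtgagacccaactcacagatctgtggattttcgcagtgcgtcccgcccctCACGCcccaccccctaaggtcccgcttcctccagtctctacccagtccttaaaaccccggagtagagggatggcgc
Cyp1a1: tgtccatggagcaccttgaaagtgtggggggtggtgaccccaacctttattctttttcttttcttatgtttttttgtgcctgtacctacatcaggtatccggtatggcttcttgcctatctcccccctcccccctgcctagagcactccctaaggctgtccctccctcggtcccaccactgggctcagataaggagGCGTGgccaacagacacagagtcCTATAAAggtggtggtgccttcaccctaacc
Each window holds GCGTG once, from 76 to 72 bases before the start of Cyp1b1 and from 54 to 50 before that of Cyp1a1. That pentamer occurs in 28.2% of the 32851 windows, so its presence is common.

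Cyp1b1 read 23.9, 18 and 23.8 CPM in the 3 libraries labelled shYAP and 0.372 to 4.19 in shControl (median 1.94). The groups were far apart, and the rise was 3.38 ± 0.32 (edgeR adjusted p = 7.13e-07). It was 3.07 against shControl replicates 8 to 10 alone (adjusted p = 3.14e-10). Cyp1a1 read 0.479, 0.946 and 0.662 CPM and 0 to 4.24 in shControl (median 2.05). It lay at -1.49 ± 0.75 with an interval from -3.04 to 0.07 and was not called (adjusted p = 0.211). It held only 9 counts in the libraries labelled shYAP. The gene Ahr read -0.12 ± 0.24 (adjusted p = 0.804). Whether AHR set the level of either gene was not tested. Cyp1b1 shares none of its 31-base stretches with another gene.

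Cyp3a13 read 13.4, 18 and 13.9 CPM under the shYAP label and 0 to 6.02 in shControl (median 3.08), without overlap. It rose by 2.25 ± 0.37 (edgeR adjusted p = 4.33e-04). Its level there was of the same order as in clone1, at 7.74 to 13.8 CPM, although these belong to different experiments. Cyp2c55, which was also high in clone1, read 23.5, 18.5 and 30.4 CPM beside 8.55 to 47.9 in shControl (median 23.1). It differed by -0.003 ± 0.41 (adjusted p = 0.996, interval from -0.88 to 0.87). Against shControl replicates 8 to 10 alone, which lay at 12.8 to 14.8 CPM, the difference turned to 0.78 (adjusted p = 0.00507).

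Ugt2b34 read 2.39, 3.08 and 3.53 CPM in the libraries labelled shYAP and 14.7 to 36.7 in shControl (median 29.2). All 3 were below all 10, and the fall was 3.17 ± 0.34 (log2 -3.17; edgeR adjusted p = 2.66e-06). It stood at -2.48 against shControl replicates 8 to 10 alone (adjusted p = 3.53e-08). Ugt1a7c read 0, 0.473 and 0.662 CPM, beside 0.501 to 6.4 (median 2.56), and was called lower at -2.96 ± 0.84 (adjusted p = 0.0245). The call was lost when replicate 1, 2 or 3 labelled shYAP was left out (adjusted p = 0.121, 0.0961 and 0.0646). All 19 glucuronosyltransferase genes summed to 2.63, 4.02 and 4.19 CPM under the shYAP label and to 17.2 to 41.2 in shControl.

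Cyp2s1 read 8.14, 9.7 and 10.4 CPM in the libraries labelled shYAP and 11.4 to 24.3 in shControl (median 20.8), with no overlap. It fell by 1.05 ± 0.25 (edgeR adjusted p = 0.00917). The call was lost without replicate 1 (-0.95, adjusted p = 0.0705) or replicate 2 (-1.07, adjusted p = 0.0555), and against shControl replicates 8 to 10 alone (-0.58, adjusted p = 0.109). Cyp2d26 fell by 2.79 ± 0.81 (adjusted p = 0.0289), from 0.753 to 4.45 CPM in shControl to 0.239, 0.473 and 0.221. This call, too, was lost without replicate 1, 2 or 3 (adjusted p = 0.118, 0.0893 and 0.128). Without replicate 1 or 2 labelled shYAP, 3 genes were called in place of 6, and a limma fit with runs of replicates taken from the data as random blocks called 2, Cyp1b1 and Ugt2b34.

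The 2 control lines were compared as well. Of 18 tested, 1 was called higher in Scrambled than in shControl and 1 lower, where 2.95% of all 11960 genes tested were called (1.76% and 1.19%), and the median was -0.09, with -0.040 over all genes. Both were glucuronosyltransferases. Ugt1a7c was higher in Scrambled by 1.58 ± 0.40 (edgeR adjusted p = 0.0168), with 8.32 to 11 CPM above all shControl libraries. Ugt2b34 was lower in Scrambled by -1.44 ± 0.32 (adjusted p = 0.00586), with 7.71 to 13.9 CPM below all shControl libraries. Neither held without Scrambled replicate 2 (adjusted p = 0.174 and 0.0958) or replicate 3 (0.0627 and 0.0774), Ugt1a7c did not without replicate 1 (0.0559), and neither held against shControl replicates 8 to 10 alone (0.0646 and 0.276). The line, the kind of control and the experiment cannot be told apart here.

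Of the 18 tested genes 5 were called in none of the 5 comparisons: Cyp2j6, Cyp4f16, Cyp4f13, Cyp4f39 and Cyp1a1. Cyp2j6, of the family of arachidonic acid epoxygenases, is the most precisely measured. It read 41.1, 40.9 and 47.1 CPM in Scrambled and had medians of 47 in clone1, 52.7 in clone2, 41.6 in shControl and 50.3 under the shYAP label. Its log2 difference from Scrambled was 0.18 (interval from -0.09 to 0.45) in clone1 and 0.22 (from -0.050 to 0.49) in clone2, which bounds it well below the changes of Cyp2c55.

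The Cyp4f genes encode hydroxylases of the far end of fatty acids and leukotrienes, and Cyp4f39 serves the skin's acylceramides. Summed, the 9 Cyp4f genes lay at 16.2 ± 5.32 CPM in Scrambled (n = 3), 16.8 ± 2.94 in clone1 (n = 9), 18.1 ± 3.12 in clone2 (n = 9), 15.7 ± 4.35 in shControl (n = 10) and 19.3 ± 4.02 under the shYAP label (n = 3). Cyp4f16 read 0.66 ± 0.29 in clone1 (edgeR adjusted p = 0.134) and 0.71 ± 0.29 in clone2 (adjusted p = 0.0517), so neither passed the threshold. Cyp4f13 read -0.83 ± 0.29 in clone1 (adjusted p = 0.053). Of Cyp4f16, 26.7% of the 31-base stretches are shared, mostly with Cyp4f37.

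The receptors and transcription factors of the pathway came from a list of 22 genes, of which 17 were tested in the knockout experiment. Nr1i2, the gene of PXR, read 3.23, 4.94 and 3.04 CPM in Scrambled, 3.32 to 15.1 in clone1 (median 8.54) and 0 to 1.7 in clone2 (median 0.192). It rose in clone1 by 1.29 ± 0.41 (edgeR adjusted p = 0.0314), where the groups overlapped at Scrambled replicate 2, and fell in clone2 by 3.36 ± 0.49 (adjusted p = 1.33e-06), without overlap. Nr1i3, the gene of CAR, had 0 counts in Scrambled, clone2, shControl and the libraries labelled shYAP. In clone1 it had 1 count in all, with 8 of 9 libraries at 0.

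Hnf4a, a nuclear receptor of gut and liver epithelium, fell by 0.83 ± 0.18 in clone2 (edgeR adjusted p = 5.14e-04), from 59.1, 49.3 and 52.5 CPM to 19.4 to 41.8. Its paralogue Hnf4g, chosen after its values were seen, read 3.7, 3.71 and 7.91 CPM in Scrambled, 0 to 1.63 in clone1 and 0 in all 9 clone2 libraries, at least 72.9-fold lower than in Scrambled with 3 counts over the group as the floor. Foxa2 rose in clone2 by 2.22 ± 0.63 (adjusted p = 0.00618).

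In all, 2 of the 17 factors were higher in clone1 (Nr1i2 and the glucocorticoid receptor Nr3c1) and 1 lower (Hnf4g), with a median of 0.13. In clone2, 1 was higher and 4 lower, with a median of -0.16, and between the clones 2 were higher and 7 lower in clone2, with a median of -0.38. Under the shYAP label Hnf4a (-0.61 ± 0.17, edgeR adjusted p = 0.0226) and Pparg (-1.10 ± 0.32, adjusted p = 0.0342) were called lower of 16 tested, and 0 higher. Nr1i2 read 2.39, 4.73 and 7.06 CPM there, beside 2.43 to 7.01 in shControl, and was not called. Over all genes tested, 12.7% were called in clone1, 33.1% in clone2, 49.1% between the clones and 11.4% under the shYAP label. Taken in both directions, calls were about as frequent among the factors as among all genes. The same shares apply to the lists that follow. Whether the factors set the levels of the enzymes was not tested.

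**Figure D4:**
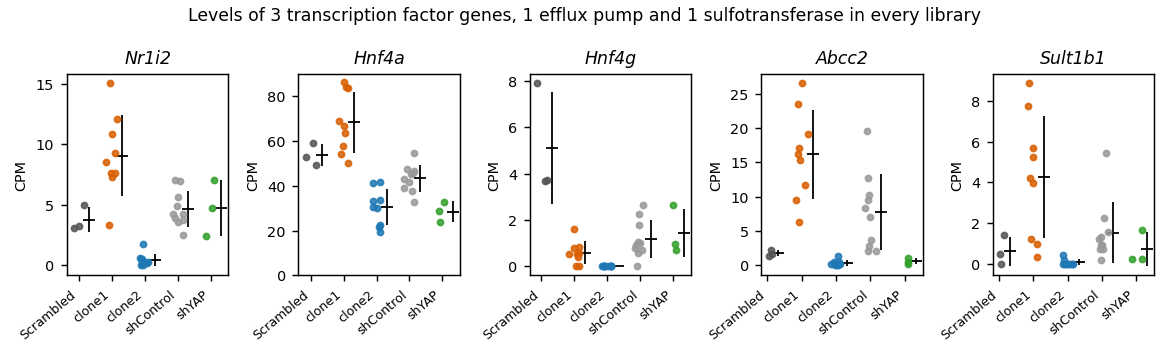
CPM (vertical, linear, 1 scale per gene) of 3 transcription factor genes, the efflux pump Abcc2 and the sulfotransferase Sult1b1 in every library (points) of the 5 groups, with mean and SD as a black bar. Nr1i2 and Abcc2 are highest in clone1, and Nr1i2 and Hnf4g are at or near 0 in clone2.

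Of the efflux pumps, which export drugs and conjugates, Abcb1a and Abcc2 were called in both clones, higher in clone1 and lower in clone2. Of 5 pumps tested, 3 were called higher and 0 lower in clone1 (median 0.84), 0 higher and 3 lower in clone2 (median -0.81), and all 5 were lower in clone2 than in clone1 (median -1.16). Over all genes tested, 5.96% were higher in clone1, 16.6% lower in clone2 and 25.5% lower in clone2 than in clone1. Abcc2, the pump of glucuronides, read 1.62, 1.39 and 2.23 CPM in Scrambled, 6.37 to 26.5 in clone1 and 0 to 1.41 in clone2. It rose by 3.16 ± 0.46 in clone1 (edgeR adjusted p = 7.43e-06) and fell by 2.44 ± 0.59 in clone2 (adjusted p = 0.00148), where the highest library overlapped Scrambled. Under the shYAP label it read 0.239, 0.473 and 1.1 CPM, below all shControl libraries (2.07 to 19.5), and fell by 3.59 ± 0.84 (adjusted p = 0.0116). Within shControl, Abcc2 read 2.1, 3.7 and 2.07 CPM in replicates 8 to 10 and 2.79 to 19.5 in replicates 1 to 7. Between the control lines, Abcc2 was called lower and Abcb1a higher in Scrambled than in shControl. The multidrug pump Abcb1a rose by 1.02 ± 0.18 in clone1 (adjusted p = 1.43e-04) and fell by 3.77 ± 0.18 in clone2 (log2 -3.77; adjusted p = 4.03e-18).

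Ugdh, the enzyme that makes UDP-glucuronate, stood at 63.4 ± 2.33 CPM in Scrambled (n = 3), 85 ± 10.4 in clone1 and 24 ± 3.61 in clone2 (n = 9 each). It rose by 0.43 ± 0.14 in clone1 (edgeR adjusted p = 0.0309) and fell by 1.42 ± 0.13 in clone2 (adjusted p = 4.15e-11). Slc35d1, a carrier of UDP-glucuronate into the endoplasmic reticulum, fell in clone2 by 1.92 ± 0.39 (adjusted p = 1.69e-04). Of the list's 8 genes 5 were tested, with 1 higher in clone1 (median 0.02), 2 lower in clone2 (median -0.34) and 1 higher under the shYAP label, Gusb, the enzyme that removes glucuronic acid (0.64 ± 0.20, adjusted p = 0.0427; median 0.12).

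Other conjugating and hydrolysing enzymes moved in both directions. Of 9 tested, 2 were higher and 1 lower in clone1 (median 0.42), and 3 higher and 2 lower in clone2 (median 0.17). Sult2b1, a cholesterol sulfotransferase, was called higher in both clones (1.41 ± 0.25 and 1.03 ± 0.24; edgeR adjusted p = 9.55e-05 and 0.00105), and the epoxide hydrolase Ephx1 lower in both (-2.46 ± 0.64 and -1.74 ± 0.61; adjusted p = 0.00819 and 0.0258). Sult1b1, a sulfotransferase of phenols chosen after its values were seen, had 11 counts in Scrambled, 134 in clone1 and 3 in clone2, and was called higher in clone1 (2.56 ± 0.82, adjusted p = 0.0327) and lower in clone2 (-2.86 ± 1.04, adjusted p = 0.0313). It read 3.97 to 8.87 CPM in clone1 replicates 1 to 6 but 0.339 to 1.23 in replicates 7 to 9, which lie within the Scrambled range of 0 to 1.39. Under the shYAP label 2 of 8 were higher and 1 lower (median -0.19), with the retinal dehydrogenase Aldh1a1 at 2.80 ± 0.45, which lies under the level set for naming and was chosen after its values were seen.

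The general machinery of the P450 system was present throughout. All 17 genes of electron transfer and haem synthesis were tested, with 1 higher and 3 lower in clone1 (median 0.08), 4 higher and 4 lower in clone2 (median 0.08) and 0 higher and 1 lower under the shYAP label (median -0.02). Por, the reductase, was not called against Scrambled in either clone, and stood at 41.1 ± 7.5 CPM in clone1 and 28.9 ± 5.57 in clone2, a difference of -0.52 ± 0.12 (edgeR adjusted p = 6.89e-04). Cyb5a, Cyb5b, Cyb5r3 and the haem enzyme Alad were higher in clone2, by 0.69, 0.68, 0.90 and 1.0 on the log2 scale. Of 18 genes of P450 families outside the set 3 were tested. Cyp51, of cholesterol synthesis, was called higher in both clones (0.50 ± 0.12 and 0.51 ± 0.12) and lower under the shYAP label (-1.10 ± 0.21, adjusted p = 0.00177).

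Called markers of absorptive colonocytes, like called genes of the set, went mostly up in clone1 and mostly down in clone2. Of 12 such markers 8 were tested, with 6 higher and 0 lower in clone1 (median 1.75), 1 higher and 6 lower in clone2 (median -1.80) and all 8 lower in clone2 than in clone1 (median -3.36). Over all genes tested, 5.96% were called higher in clone1, 16.6% lower in clone2 and 25.5% lower in clone2 than in clone1. The summed level of the 12 markers was 279 to 299 CPM in Scrambled, 809 to 1839 in clone1 and 168 to 585 in clone2. The median sum was 403 CPM in clone2 beside 282 in Scrambled, although most called markers were lower there. The clone2 range spanned the Scrambled range, and the sum was not tested. In shControl it was 204 to 535 CPM, and 431 to 463 under the shYAP label. Slc26a3 had 0 counts in Scrambled and under the shYAP label. The carbonic anhydrase Car1 was the 1 marker called higher in clone2 (1.42 ± 0.44, edgeR adjusted p = 0.0178). Of 3 goblet cell markers tested, 0 were called in clone1 and 1 was lower in clone2, with 208 to 284 CPM and 197 to 329 CPM in sum beside 316 to 320 in Scrambled. The part of such cells in the P450 levels was not tested.

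Of 6 hepatocyte markers, Fgb had 0 counts in every group, and Ahsg and Serpina1a had 0 in Scrambled, shControl and under the shYAP label. The 6 summed to 2.01 to 4.62 CPM in Scrambled, 4.17 to 10.7 in clone1, 0 to 3.26 in clone2, 7.53 to 25.3 in shControl and 1.98 to 3.59 under the shYAP label. Alb was called higher in clone1 (2.69 ± 0.88, edgeR adjusted p = 0.0401) and lower under the shYAP label (-4.34 ± 0.55, adjusted p = 2.70e-05). It read 3.8 to 8.61 CPM in clone1 replicates 1 to 6 and 0.794 to 2.06 in replicates 7 to 9, beside 0.406 to 0.772 in Scrambled. Between the control lines, Alb was called lower in Scrambled than in shControl. Small intestine markers Lct, Sis and Apoa4 had 0 counts in every group, and that list reached at most 18.6 CPM, in clone2. Markers of immune cells were led by Cd68, with Cd3e at 0 in every group, and summed to 22.8 to 28.6 CPM in clone1 and 17.4 to 31.4 in clone2, beside 31 to 38.1 in Scrambled. Endothelial markers Cdh5 and Kdr had 0 counts in every group.

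Levels also varied between runs of replicates within a group. The runs were taken from the data, and the library numbers continue without a break between clone1 replicates 6 and 7 and between shControl replicates 7 and 8, so the ranges are a description. In clone1, replicates 1 to 6 and 7 to 9 did not overlap for Cyp2c55 (111 to 209 and 66.8 to 79.6 CPM), Cyp2s1 (49.4 to 83.1 and 40.4 to 41.5), Ugt2b34 (18.8 to 32.3 and 11.7 to 15.5), Cyp2b10 (13.2 to 19.6 and 6.95 to 11.2) or Cyp2d34 (3.65 to 12 and 0.794 to 2.67), all higher in replicates 1 to 6. The same held for Cyp4f13 (4.44 to 8.84 and 3.39 to 4.37) and Cyp2d26 (1.4 to 3.32 and 0.198 to 1.02). Cyp1a1 lay the other way, with means of 1.92 and 5.54 CPM in clone1, where the ranges overlapped, and with 0.817 to 3.24 and 3.52 to 7.23 CPM in clone2 replicates 1 to 6 and 7 to 9. In shControl, replicates 8 to 10 were below the other 7 for Ugt2b34, at 14.7 to 18.3 CPM beside 26.7 to 36.7. They were also below for Cyp2s1, at 11.4 to 18.6 CPM beside 20.1 to 24.3. With clone1 replicates 7 to 9 alone the rises were 2.92 for Cyp2c55 (edgeR adjusted p = 1.39e-07), 1.59 for Cyp2b10 (0.00253), 2.72 for Cyp2c65 (0.00142), 1.53 for Cyp3a13 (0.00618) and 0.56 for Cyp2s1 (0.0153). With replicates 1 to 6 alone they were 4.09, 2.45, 2.74, 1.78 and 1.17. These 5 genes were therefore called in either run of clone1 libraries. The labels name no batch, and what sets the runs apart was not tested.

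**Figure D5:**
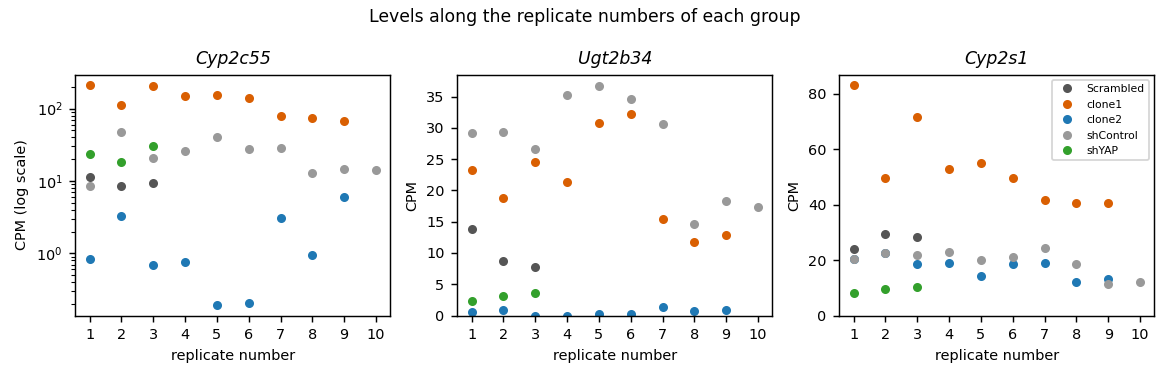
CPM (vertical; log scale for Cyp2c55, linear from 0 for the others) of 3 genes in every library against its replicate number (horizontal), coloured by group. Numbers name libraries and carry no order in time. Clone1 replicates 7 to 9 lie below replicates 1 to 6, at 66.8 to 79.6 CPM for Cyp2c55.

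The 25 genes with counts under the filter were not tested. Cyp4x1 and Cyp2d9 held the most, with 86 and 66 in total. Cyp4x1 held 36 counts in clone1 and 19 in clone2. Cyp2d9, which shares 34.8% of its 31-base stretches with other genes, held 2 counts in Scrambled, 53 in clone1 and 1 in clone2. Of the 53, 28 came from 1 library. Cyp2c68 held 16 counts in clone1 and 1 in clone2, a ratio of 18.7 with a 95% counting interval from 2.91 to 786, which covers counting error alone. Cyp2c68 shares 62% of its 31-base stretches, mostly with Cyp2c40. Ugt2b35 held 18 counts in shControl and 0 under the shYAP label, at least 1.71-fold lower with 3 counts over the group as the floor.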

How the data were processed

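Poly(A)-selected, strand-specific libraries were sequenced from the 34 organoid samples, per the labels' protocols. The deposited table holds expected counts per gene, which the authors made with Salmon 1.3.0 on mm10, per the submitters' processing notes. The values are whole numbers. The annotation release and the summing of transcripts to genes are not given in the sources used here. Entries without a gene name held at most 0.0475% of a library. Positions and exon lengths were taken from GENCODE M21, and promoters from RefSeq, which held windows for 83 of the 99 genes and 16 of the 18 tested.

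Low genes were removed by filterByExpr at a minimum count of 10 and a minimum total of 15. After TMM scaling, edgeR 4.0.16 under R 4.3.3 gave robust, two-sided quasi-likelihood tests, whose p-values were adjusted by Benjamini-Hochberg across every gene tested in the fit. The 21 knockout libraries shared 1 fit, the 13 hairpin libraries another, and the controls were compared in a fit of all 34. Levels are TMM-scaled CPM from all 34. Common biological coefficients of variation were 0.218, 0.281 and 0.248. Shared sequence is the percentage of distinct 31-base stretches of a gene's transcripts found in other genes. Each tested gene of the set is named. Some genes of the lists are not reported here by name. From each pathway list up to 4 called genes per comparison are named where their average log2 CPM reaches 1. The genes and lists were chosen with earlier results of these data known. Steps were tested on simulated data. The alternatives tried were DESeq2 1.42.0 and its size factors in edgeR, testing unfiltered genes, 1 fit of all libraries, a replicate block, leaving out single replicates and subsets of replicates. Limma 3.58.1 was added after the data were seen, alone and with runs of replicates, which were taken from the data and are named by no label, as random blocks.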

Additional observations from a re-analysis of the deposited data

Results flagged for a closer look

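For 5 genes the change against Scrambled differed between the clones, by the edgeR test of clone2 against clone1, and had opposite signs. The differences were -6.14 for Cyp2c55 (adjusted p = 6.79e-10), -5.18 for Cyp2c65 (7.69e-11), -5.28 for Ugt2b34 (4.57e-15), -3.01 for Cyp3a13 (7.99e-12) and -1.65 for Cyp2s1 (3.45e-12), in log2 units. Both effects share the 3 Scrambled libraries.

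Cyp3a13 in clone2 replicate 4 stood apart from its group at 3.01 CPM, with the other 8 libraries at 0.493 to 1.63. It was 1 of 36 groups of libraries checked in this way, and chance flags about 1 in 20 groups.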

How the results depend on the processing

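Of 421 values of called genes under an alternative, 367 kept call and direction, 54 lost the threshold and 0 reversed; 22 of 38 calls held wherever tested, among them Cyp2c55, Cyp2c65, Cyp2b10, Cyp3a13 and Cyp2s1 in clone1 and Ugt1a7c and Ugt2b34 in clone2. For clone1 against Scrambled, 5 genes were called by limma, 5 by limma with the runs taken from the data as random blocks and 5 to 7 without 1 Scrambled replicate. For the libraries labelled shYAP 2 were called with random runs and 3 to 4 without 1 replicate. For Scrambled against shControl 0 were called with random runs, 0 to 1 without 1 Scrambled replicate and 1 against shControl replicates 8 to 10. With no filter 12 and 19 genes were called in clone2 against Scrambled and against clone1, where more genes were tested. The cause of the other shifts was not tested. Replicate numbers do not pair the libraries: same-numbered libraries of different groups had mean correlations of -0.034 to 0.0616. With the replicate number as a block, 7 genes were called in clone1 against Scrambled, 5 in clone2 against Scrambled in place of 9 (lost were Cyp2c55 at -2.01, Cyp2c65 at -1.89, Cyp2s1 at -0.35 and Cyp2d26 at -2.33, with adjusted p = 0.0864, 0.0943, 0.165 and 0.135), 13 in clone2 against clone1 and 5 under the shYAP label. Reversed values were all of uncalled genes: Cyp2c55 under the shYAP label read 0.004 with DESeq2 size factors and with DESeq2, 0.14 in both limma fits, 0.15 with the block, -0.23 to 0.16 without 1 replicate labelled shYAP (0.023 without replicate 1), 0.06 against shControl replicates 5 to 10 and 0.78 against 8 to 10. Ugt1a7c in clone1 read -0.19 to 0.023 without 1 Scrambled replicate and 0.08 with replicates 7 to 9, and Cyp2j6 between the clones -0.037 with replicates 1 to 6. Cyp2d10, Cyp2d12, Cyp2e1 and Cyp2d26 were under the filter in knockout replicates 7 to 9 and have no value there, nor has Cyp2d26 in replicates 1 to 6. Depth limits the genes below about 1 CPM, where single counts move the value.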
